A study of Mus musculus with 4 samples.

Results

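The 33 genes described here serve protein folding in the endoplasmic reticulum and the response to its stress. They are named stress sensors with their transcription factors and targets, enzymes and chaperones of disulfide and glycoprotein folding, and factors of endoplasmic-reticulum-associated degradation. Of the 33, 30 were found by their name among the 27666 gene names of the array, with 51 probes. The other 3 were listed there under older names: Sel1l as Sel1h, Os9 as 4632413K17Rik and Ppp1r15a as Myd116. Their values are given separately and enter no count of expression values; they are among the genes whose promoters were searched.

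Gene expression was compared in mouse oocytes on 4 Agilent arrays of 2 colours. The treated oocytes were held for 60 min at 37 °C under a hydrostatic pressure of 20 MPa, and the control oocytes were held in the same way without it. Each array carried cRNA of 1 treated pool in Cy5 (red) and 1 control pool in Cy3 (green), each pool of 50 oocytes and each cRNA amplified in repeated rounds from 240 pg of total RNA. The submitters call the replicates biological. No strain, age, genotype or stage of maturation of the oocytes was given in the sources used here. By the labels the dyes were not swapped on any array, so dye and treatment cannot be told apart.

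In the endoplasmic reticulum, secreted and membrane proteins fold with the help of lectin chaperones and of oxidoreductases that form and rearrange disulfide bonds, and proteins that fail to fold are sent back to the cytosol for degradation. When unfolded proteins accumulate, 3 membrane sensors respond. IRE1 (Ern1) splices the mRNA of Xbp1, PERK (Eif2ak3) phosphorylates the initiation factor eIF2 and so favours translation of Atf4, and ATF6 is cleaved to release a transcription factor. XBP1 and ATF6 act on endoplasmic reticulum stress elements in promoters of folding and degradation genes. In oocytes this compartment carries the synthesis of the zona pellucida and of secreted growth factors, and it stores calcium. Splicing, phosphorylation and cleavage were not measured by the array, which reports amounts of RNA.

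The stress element was searched for first in the promoters. The genes were listed for their part in folding and its stress response, so their share with the element is not independent of that choice. The RefSeq promoter table (assembly GRCm38.p6) holds windows of 300 bases for 27025 genes, and 28 of the 33 genes were in it. The element is CCAAT and CCACG separated by 9 bases, and its second form is ATTGG and CCACG separated by 1 base, each on either strand. The first form was in 7 of the 28 genes (25.0%) and in 37 of all genes (0.137%). The second was in 1 of the 28 (3.57%), Herpud1, and in 12 of all genes (0.0444%). The windows around the 8 matches follow, since these genes share a named regulatory sequence; they are written 5′ to 3′ on the strand of the gene, with both parts of the element in capitals (CGTGG and ATTGG mark the first form on the opposite strand).
Pdia6, chr12:17266476-17266524, plus strand: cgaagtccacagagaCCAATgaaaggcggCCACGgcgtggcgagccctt
Ero1lb, chr13:12565667-12565715, plus strand: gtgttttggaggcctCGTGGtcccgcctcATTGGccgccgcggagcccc
Calr, chr8:84847060-84847108, minus strand: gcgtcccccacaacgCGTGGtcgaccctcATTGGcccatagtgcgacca
Canx, chr11:50325785-50325833, minus strand: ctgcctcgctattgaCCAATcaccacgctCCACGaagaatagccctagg
Creld2, chr15:88819505-88819553, plus strand: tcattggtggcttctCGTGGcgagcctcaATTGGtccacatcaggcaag
Syvn1, chr19:6046517-6046565, plus strand: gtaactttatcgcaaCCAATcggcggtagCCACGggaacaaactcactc
Derl3, chr10:75893227-75893275, plus strand: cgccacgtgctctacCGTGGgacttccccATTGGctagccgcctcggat
Herpud1, chr8:94386362-94386402, plus strand: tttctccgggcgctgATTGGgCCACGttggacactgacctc

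All 8 windows lay upstream of the annotated start, the nearest ending 11 bases and the farthest beginning 216 bases before it. The searched sequences lie mostly before the start, and the printed windows were set to end before it. These positions were therefore largely fixed by the search. None of the 8 belonged to the sensors, factors and targets, of which Atf6 and Ppp1r15b were not in the promoter table and could not be searched. Erp29, Hyou1 and Derl1 were not in it either. The part CCACG alone, which the element contains, was in 22 of the 28 genes (78.6%) and in 35.5% of all genes. TGACGTG, a site bound by XBP1 and ATF6, was in 0 of the 28 and in 2.22% of all genes. TTGCATCA, the core of the amino acid response element, was in 1 of the 28, again Herpud1, and in 1.03% of all genes. These are matches of letters and show neither binding nor activity.

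Facts of the arrays bear on every value below. Of 43379 spots other than controls, 7049 to 11155 were well above background in red and 8309 to 10837 in green, and none was saturated. Replicate 1 stood apart before normalization and after it. Its red channel was the brighter one, with a ratio of red to green of 2.56 at the 99th percentile of background-subtracted signal, against 0.251 to 0.399 on the other arrays. Its log2 ratios correlated at -0.15 to -0.19 with those of the other arrays, which correlated at 0.086 to 0.29 among themselves. Whether its dyes ran the opposite way to its label could not be settled from the files, so its direction is in doubt, and with it every mean that includes it. The labelled direction was kept, and the means of the members and the medians of the lists are given with and without this array. With its sign turned, 10 of the 21 tested members were above 0 and 11 below, and limma called none. The lowest adjusted p of any gene in limma was then 0.0535, against 0.929 with the labelled direction and 0.169 without this array. The members with an unadjusted limma p under 0.05 numbered 3, 0 and 1 in these settings. The share of all tested genes was 4.19% with the labelled direction and is not given for the other settings. These counts are therefore not a result about the members. Of the oocyte markers on the array 11 of 14 were tested, against 6 of 19 of cumulus and granulosa cells. The counts were 2 of 9 for blood and immune cells and 4 of 13 for oviduct, endothelium and stroma. Gdf9 and Zp3 were measured, and Zp2, Amh, Fshr and Ptprc did not pass the filter. Measured markers of other cells included Tnfaip6, Srgn, Hba-a1, Vim and Acta2, each detected on 4 arrays in each channel. The arrays were normalized, so a change of the total RNA of an oocyte would not be seen, and fewer cells of a type and less RNA per cell cannot be told apart.

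Most of the genes were measured, although several central ones were not. A probe was kept if it was well above background on at least 3 of the 4 arrays in 1 channel, and the brightest of a gene's kept probes stood for it. By this rule 21 of the 30 genes were tested, or 70.0%, beside 25.0% of all gene names on the array. The share was 5 of 10 among sensors, factors and targets, 9 of 12 among folding genes and 7 of 8 among degradation genes. Of the 21, 10 were well above background in both channels on all 4 arrays: Atf6, Pdia6, Erp29, Canx, Hyou1, Creld2, Edem1, Edem3, Derl1 and Derl2.

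Xbp1 and Atf4, the transcription factors downstream of IRE1 and PERK, were well above background on 0 arrays in either channel. The background-subtracted intensity of the Xbp1 probe was 8.34, 5.14, 3.74 and 3.41 in red and 19.6, 21.4, 16.0 and 15.7 in green on replicates 1 to 4. These values sat at the level of the background on every array, so no change of Xbp1 could be seen in either direction. Ddit3 (CHOP), a target of ATF4 that promotes cell death, was detected in red on 1 array and in green on 0. Ern1, which encodes IRE1, was detected in red on 1 array and in green on 2. Ppp1r15b, a cofactor of the phosphatase that reverses the phosphorylation of eIF2, was detected in green on 1 array, and its inducible relative Ppp1r15a on 0 in both.

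Among folding genes, the oxidoreductases P4hb and Pdia4 and the oxidase Ero1l were detected on 0 arrays in both channels. So was Edem2, a mannosidase-like factor of degradation. Sel1l, the partner of the ubiquitin ligase encoded by Syvn1, was detected on 1 array in each channel. The genes that were not kept are therefore not shown to be absent from oocytes, only not above background with these probes.

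**Figure D1:**
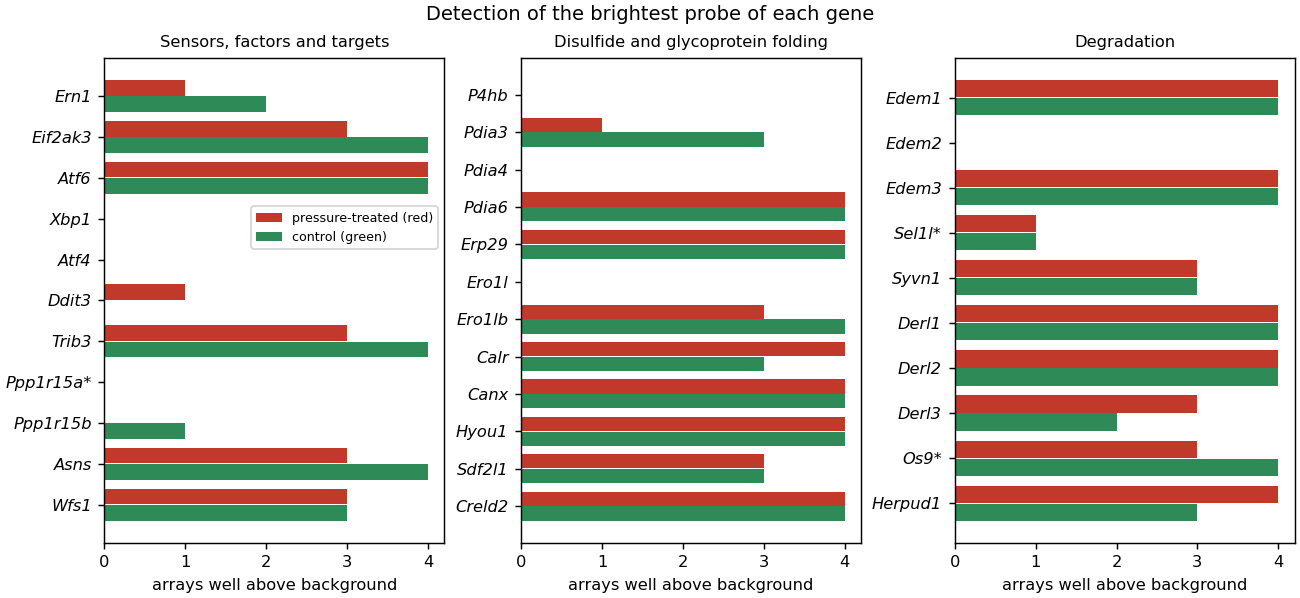
Number of arrays (of 4) on which the brightest probe of each gene was well above background, in the pressure-treated channel (red bars) and the control channel (green bars), by role; an asterisk marks a gene found under an older name. Xbp1, Atf4, P4hb, Pdia4, Ero1l, Edem2 and Ppp1r15a have no bar because they were detected on 0 arrays in both channels.

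Probe position was set beside detection, using the coordinates in the files (build mm7). In all, 10 of the genes have both kept and unkept probes, and in 7 of these 10 the probe nearest the 3′ end was kept. The probe nearest the 5′ end was kept in 2, Calr and Trib3. Over all genes with both kinds of probe the shares were 70.6% and 21.2% of 3193. The members' shares were close to those of the array as a whole.

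The comparison of treated and control pools gave no called gene among the tested members. With limma and Benjamini-Hochberg adjustment over 6920 genes at 0.05, 0 of the 21 were higher and 0 were lower in treated oocytes, beside 0.0% of all tested genes higher and 0.0% lower. Adjusted p from limma ran from 0.929 to 0.991 over the 21. None had an unadjusted p under 0.05, beside 4.19% of all genes. By sign of the mean, 9 were above 0 and 12 below. Their median log2 ratio of treated over control was -0.05, and that of all tested genes was -0.02. Without replicate 1 these medians were -0.05 and -0.07.

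Few members kept 1 sign over the arrays. The members of 1 sign on every array were Asns and Pdia3, both below 0, that is 2 of 21 beside 9.35% of all genes with 4 values. No member was above 0 on all 4 arrays, beside 2.94% of all genes. On the single arrays the members' median was 0.07, -0.01, -0.17 and -0.19 for replicates 1 to 4. It was above 0 on replicate 1 and close to or below 0 on the others. The mean of these medians was -0.07 ± 0.13 (SD, n = 4).

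The precision differed between genes. The standard error of the mean log2 ratio ran from 0.16 for Asns to 0.49 for Syvn1. The 95% interval lay within a 2-fold change either way for 15 of the 21 (71.4%), beside 62.2% of all genes. It reached past 2-fold for Atf6, Pdia3, Erp29, Hyou1, Edem1 and Syvn1. These intervals hold on the scale used here, in which an offset of 50 intensity units was added before the log2 and draws the ratios of dim probes toward 0. On the scanner software's processed signals, which carry no such offset, the means of 3 members lay beyond 2-fold. They were -1.94 for Pdia3, -1.39 for Asns and -1.08 for Atf6, and the lowest adjusted p of any member in limma was then 0.497, for Pdia3.

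**Figure D2:**
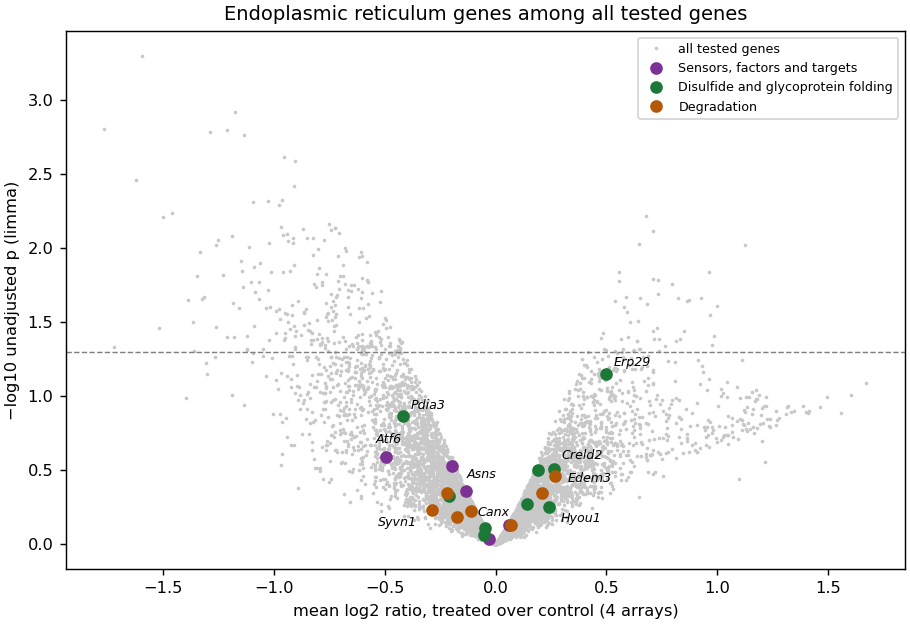
Mean log2 ratio of treated over control on 4 arrays (horizontal) and −log10 of the unadjusted limma p (vertical) for the 6920 tested genes in grey and the 21 tested endoplasmic reticulum genes in colour by role; the dashed line marks the 0.05 threshold. All 21 lie below the line, with Erp29 nearest to it at a log2 ratio of 0.50 and Pdia3 next at -0.42.

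The sensors, factors and targets lay mostly below 0, with means that did not pass the test. Of 5 tested, 4 were below 0 and 1 was above, and the median was -0.13. The median on replicates 1 to 4 was -0.11, 0.05, -0.32 and -0.26. It was below 0 on 3 arrays and just above 0 on replicate 2. Without replicate 1 it was -0.21, and on the processed signals -0.50.

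Eif2ak3, which encodes PERK, had log2 ratios of -0.16, 0.05, -0.32 and -0.36 on replicates 1 to 4. They were below 0 on 3 arrays and near 0 on replicate 2. The mean was -0.20 ± 0.17 (SE, n = 4), with a 95% interval from -0.62 to 0.23, and -0.21 without replicate 1.

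Atf6 had ratios of 0.37, -0.09, -0.37 and -1.88. Replicate 1 was above 0 and replicate 4 lay far below the rest, so the mean of -0.49 ± 0.39 (SE, n = 4) rested largely on that 1 array. Without replicate 4 the mean was -0.03, and without replicate 1 it was -0.78. The background-subtracted intensity on replicate 4 was 15.5 in the treated pool and 463 in the control pool, and on replicate 1 it was 105 and 35.3. The channel that was brighter for Atf6 changed between these arrays, as it did for the arrays as a whole.

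Asns, asparagine synthetase and a target of ATF4, was below 0 on every array at -0.11, -0.06, -0.17 and -0.19. The values were close together and close to 0. The mean was -0.13 ± 0.16 (SE, n = 4), which is smaller than its error, and -0.14 without replicate 1. The intensity of its probe was 11.7 to 17.9 in red and 23.3 to 81.4 in green, within the range where the offset shrinks a ratio.

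Trib3, a pseudokinase induced by ATF4 and CHOP, had ratios of -0.20, 0.07, 0.07 and 0.31. Only replicate 1 was below 0, and the mean was 0.06 ± 0.17, or 0.15 without that array. Wfs1, which encodes wolframin, a membrane protein of the endoplasmic reticulum, gave 0.66, 0.08, -0.58 and -0.26. Its arrays pointed both ways, with a mean of -0.03 ± 0.25, or -0.26 without replicate 1. Together these genes give an incomplete view of the PERK branch: its sensor and 2 of its targets were measured, and Atf4 and Ddit3 between them were not.

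The folding genes were divided in sign. Of 9 tested, 5 were above 0 and 4 below, with a median of 0.14. The median on replicates 1 to 4 was -0.04, -0.01, 0.21 and 0.14, above 0 on replicates 3 and 4 and just below it on the others. Without replicate 1 it was 0.19, on the processed signals 0.29, and with no filter on dim probes 0.0029. Centring each array on its median in place of loess moved it to -0.43, while the median of all genes moved to -0.34.

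Erp29, a chaperone of the lumen related to the disulfide isomerases but without their active site, had the smallest p of the members. Its log2 ratios were -0.04, 0.35, 0.81 and 0.89 on replicates 1 to 4. Replicates 2 to 4 were all above 0 and replicate 1 was at about 0. The mean was 0.50 ± 0.22 (SE, n = 4), 1.41-fold higher in treated oocytes, with a 95% interval from -0.06 to 1.06. With limma the unadjusted p was 0.070 and the adjusted p 0.929. Without replicate 1 the mean was 0.68 and the unadjusted p 0.024, while the adjusted p was 0.375. With median centring the mean was -0.02, when the median of all genes was -0.34.

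Pdia3 (ERp57), the isomerase that works with calnexin and calreticulin on glycoproteins, was below 0 on every array at -1.12, -0.04, -0.17 and -0.33. Replicate 1 was far the lowest. The mean was -0.42 ± 0.24 (SE, n = 4), and without replicate 1 it was -0.18. Its probe was well above background in red on 1 array and in green on 3. Pdia6, another isomerase, gave 0.75, -0.35, 0.08 and -0.68 with a mean of -0.05 ± 0.28. Replicate 1 was the highest of these, and without it the mean was -0.32.

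The lectin chaperones of the calnexin cycle had means near 0 that did not pass the test. Calr, calreticulin, had ratios of -0.39, 0.09, 0.44 and 0.42 and a mean of 0.14 ± 0.21. Replicate 1 was the only value below 0, and without it the mean was 0.32. Canx, calnexin, had ratios of -0.08, -0.09, -0.22 and 0.20 and a mean of -0.05 ± 0.17, with a 95% interval from -0.47 to 0.37. Without replicate 1 it was -0.04. These 4 values lie close together on a probe with a background-subtracted intensity of 1233 to 5667 in red and 2345 to 8588 in green. With median centring in place of loess the mean was -0.79 ± 0.63, when the median of all genes was -0.34. A second kept probe of Canx read 0.41, 0.19, -0.23 and 0.86, and the mean over both probes was 0.13, so the sign differed between probes.

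Creld2, a secreted factor induced by the stress response, had ratios of -0.36, 0.58, 0.70 and 0.14. As with Erp29 and Calr, replicate 1 was below 0 and the others above. The mean was 0.26 ± 0.24, 0.47 without replicate 1 and -0.43 with median centring. Hyou1, a large chaperone that exchanges the nucleotide of the chaperone BiP, had ratios of 0.19, 1.13, 0.76 and -1.10. It was high on replicates 2 and 3 and low on replicate 4, giving a mean of 0.24 ± 0.39 and a 95% interval from -0.74 to 1.22. Leaving out 1 array at a time moved it from -0.05 without replicate 2 to 0.69 without replicate 4, and without replicate 1 it was 0.26.

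Ero1lb, an oxidase that supplies disulfide bonds, gave 0.19, -0.09, 0.21 and 0.45 with a mean of 0.19 ± 0.17. It was above 0 on 3 arrays, and without replicate 1 the mean was 0.19. Sdf2l1, which works with BiP and its cofactors, gave 0.30, -0.01, -0.05 and -1.08 with a mean of -0.21 ± 0.27. That mean rested on replicate 4, without which it was 0.08. Without replicate 1 it was -0.38.

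**Figure D3:**
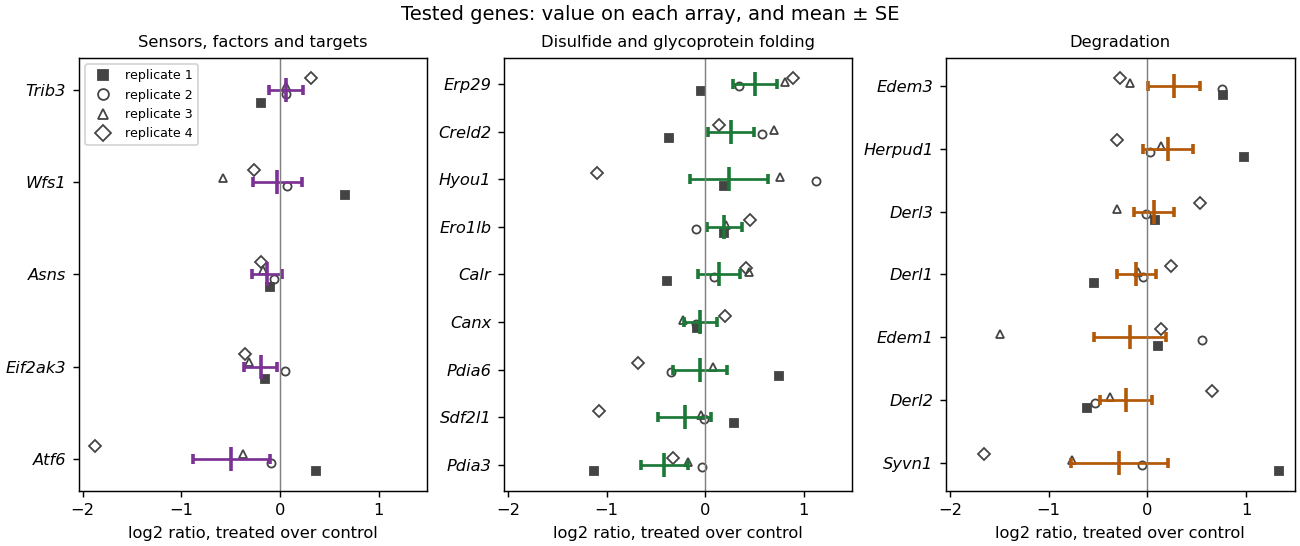
Log2 ratio of treated over control on each of the 4 arrays (symbols, with replicate 1 filled) and the mean ± SE from limma (coloured bars) for the 21 tested genes, in 3 panels by role. Erp29 has 3 arrays above 0 with replicate 1 at -0.04, Asns is the tightest at -0.19 to -0.06, and Syvn1 spans -1.66 to 1.33.

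The degradation genes were divided in sign, with the widest spread between arrays of the 3 roles. The median SD over arrays was 0.57 for them, 0.48 for folding genes and 0.21 for sensors, factors and targets, beside 0.52 for all tested genes. The offset draws the ratios of dim probes toward 0. Of the sensors, factors and targets, 1 of 5 was well above background in both channels on all arrays, and of the degradation genes 4 of 7. Whether intensity set these spreads was not tested. Of 7 tested, 3 were above 0 and 4 below, with a median of -0.11. The median on replicates 1 to 4 was 0.11, -0.02, -0.31 and 0.14. Replicate 3 was the low one, and without it the median of the gene means was 0.20. Without replicate 1 it was -0.05, and with median centring -0.66.

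Syvn1 (HRD1), the ubiquitin ligase at the centre of this degradation, had ratios of 1.33, -0.06, -0.76 and -1.66. The arrays were spread over almost 3 log2 units, with replicates 1 and 4 at opposite ends. The mean was -0.29 ± 0.49 (SE, n = 4), with a 95% interval from -1.52 to 0.95. It was -0.83 without replicate 1 and 0.17 without replicate 4.

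Herpud1, a membrane scaffold of the ligase complex with the second form of the stress element in its promoter, had ratios of 0.98, 0.02, 0.14 and -0.31. Replicate 1 was far the highest. The mean was 0.21 ± 0.25, and without replicate 1 it was -0.05. The lectin-like factors that mark misfolded glycoproteins behaved unevenly. Edem3 gave 0.77, 0.76, -0.18 and -0.27, a mean of 0.27 ± 0.26 with arrays in pairs on both sides of 0. That mean was 0.10 without replicate 1, 0.45 without replicate 4 and 0.98 on the processed signals. Edem1 gave 0.11, 0.55, -1.49 and 0.14, a mean of -0.17 ± 0.37 that rested on replicate 3. It was 0.27 without that array and -0.27 without replicate 1. A second kept probe of Edem1 averaged 0.46.

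The derlins are membrane proteins that take part in moving substrates out of the endoplasmic reticulum. Derl1 had ratios of -0.55, -0.05, -0.09 and 0.24 and a mean of -0.11 ± 0.20, or 0.03 without replicate 1, with its other 2 kept probes at means of -0.38 and -0.18. Derl2 had ratios of -0.61, -0.53, -0.38 and 0.65 and a mean of -0.22 ± 0.27. It was below 0 on 3 arrays, and the mean was -0.51 without replicate 4 and -0.08 without replicate 1, while its second kept probe averaged 0.14. Derl3 had ratios of 0.07, -0.02, -0.31 and 0.53 and a mean of 0.07 ± 0.20, with 0.07 again without replicate 1. Os9, a lectin of the same pathway found under its older name, had ratios of -0.21, -0.08, -0.33 and 0.11 and a mean of -0.13 ± 0.17, or -0.10 without replicate 1.

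**Figure D4:**
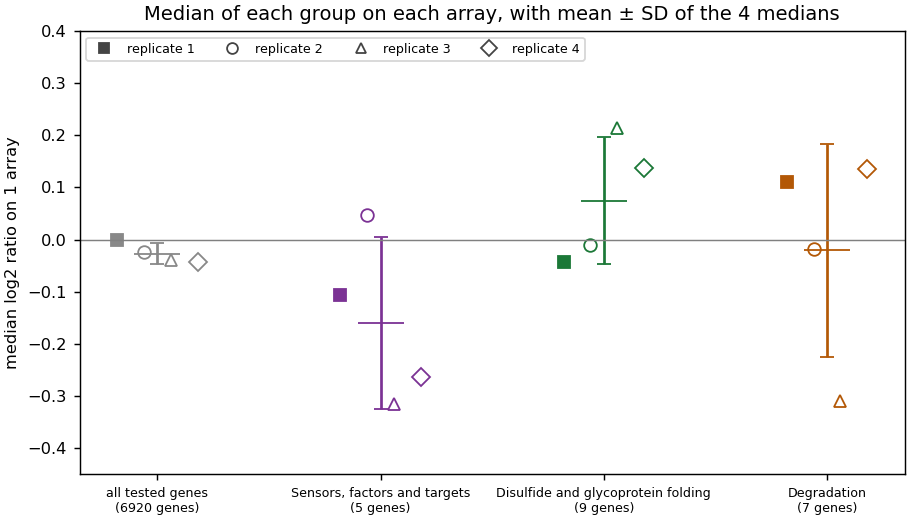
Median log2 ratio of treated over control on each array (symbols, with replicate 1 filled) for all tested genes and for the 3 roles, with the mean ± SD of the 4 medians (bars). All genes stay within -0.04 and 0.00, while the roles reach from -0.32 for sensors, factors and targets on replicate 3 to 0.21 for folding genes on the same array.

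The 8 genes whose promoter holds a stress element were all among those tested, and their means lay on both sides of 0. Their means ran from -0.29 for Syvn1 to 0.26 for Creld2, with 5 above 0 and 3 below. Their median was 0.10, or 0.01 without replicate 1, when 4 were above 0 and 4 below. The median on replicates 1 to 4 was 0.13, -0.04, 0.11 and 0.17. A further 41 genes outside the list have the element, a group chosen after the data had been seen. Of these 13 were tested, 7 above 0 and 6 below, with a median of 0.05, or -0.04 without replicate 1. The highest mean of these 13 was that of Alg12, a mannosyltransferase of N-glycan assembly, at 0.91 ± 0.38. Its ratios were 0.98, 0.44, 2.19 and 0.04. It was the 1 gene of the 13 above 0 on all 4 arrays, beside 2.94% of all genes, and limma's adjusted p was 0.929. The element of Creld2, at chr15:88819520-88819538, is the same 19 bases as that of Alg12, which is read from the other strand with its start 220 bases away on the other side. The ratios of Creld2 on the same arrays were -0.36, 0.58, 0.70 and 0.14, so the pair had opposite signs on replicate 1 and the same sign on the others. The element of Calr likewise lies in the window of another gene, 1700122E12Rik.

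Other genes of the endoplasmic reticulum were set beside the members, in lists that share none of them. None of the 5 lists had a gene called by limma in either direction. Of the BiP and GRP94 chaperone system 11 of 18 genes were tested, 5 above 0 and 6 below, with a median of -0.05, or -0.24 without replicate 1. Hspa5, which encodes BiP, was detected on 2 arrays in each channel and was not tested. Hsp90b1 (GRP94) had ratios of -0.61, 0.39, 2.02 and 0.45 with a mean of 0.56 ± 0.43. Dnajb9, a cochaperone of BiP, had ratios of 2.38, -0.32, -0.45 and -0.96 with a mean of 0.16 ± 0.58. Both were scattered, and on both replicate 1 had the opposite sign to the other 3 arrays.

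Manf, a small secreted protein induced by the stress response, was below 0 on every array at -0.57, -0.35, -0.62 and -0.06, with a mean of -0.40 ± 0.18. Fkbp9, a prolyl isomerase, averaged -0.43 ± 0.20. Among other disulfide and glycoprotein folding genes 6 of 20 were tested, 3 on each side of 0, with a median of 0.02, or -0.16 without replicate 1. There, Prdx4 and Selenof had the smallest p, with means of 0.15 and -0.13. Among other degradation genes 14 of 22 were tested, 8 above 0 and 6 below, with a median of 0.07, or -0.07 without replicate 1. The means of Herpud2, a relative of Herpud1, and Vcp, the ATPase that extracts substrates, were -0.40 and 0.22.

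Among other stress signalling and response genes 19 of 32 were tested, 8 above 0 and 11 below, with a median of -0.10, or -0.15 without replicate 1. Slc7a11, a cystine transporter, averaged -0.60, and Chac1, a glutathione-degrading enzyme, averaged -0.50. Like Asns and Trib3 these are known targets of ATF4. They were named because they had the smallest p of their list. Trib3 averaged 0.06, so the targets named here did not share a sign. The genes of protein entry and N-glycosylation were the list with the most tested members, 24 of 32, with 9 above 0, 15 below and a median of -0.08, or -0.16 without replicate 1. Of these, 4 were below 0 on every array. Ssr3 and Sec61b, subunits of the translocon complex, had unadjusted p under 0.05 in limma, at -0.75 ± 0.26 and -0.54 ± 0.20, with an adjusted p of 0.929 each.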

How the data were processed

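Each of 4 arrays compared 1 treated pool (red) with 1 control pool (green). The deposited files hold mean spot intensity and median local background intensity per channel. The submitters' processing notes name Agilent Feature Extraction 9.5.1.1. Per the file headers, its processed signals are background-subtracted and dye-normalized, and a deposited column gives the log10 of red divided by green. The authors' value table holds the same log10 ratio to within 5e-10, with a median of 0 on each array.

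From the intensity values, background was corrected by normexp (offset 50) and each array was then loess-normalized, giving control spots a weight of 0 (limma 3.58.1, R 4.3.3). Control and flagged spots were left out, and spots of a probe averaged. A probe stayed in (8108 of 41174) when 1 channel was well above background on 3 or more arrays, and the brightest kept probe represented each of 6920 genes, 6868 of them with 4 values. Names came from the files, updated through RefSeq (GRCm38.p6) by accession for 5050 genes, symbol for 804 and synonym for 373, with 693 kept. Each gene's log2 ratio was compared with 0 by limma's lmFit and eBayes. These functions were also run on simulated ratios drawn independently for each array, unlike the correlated arrays here.

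The members, lists and motifs were chosen with earlier results of these data known. Every member is accounted for. Array values are given, within each role, for those of 1 sign on all arrays, the 3 with the smallest p, the members central to the stress response and further members. Of each other list the 2 genes with the smallest p are named, with Hspa5, Hsp90b1, Dnajb9 and Manf. Alg12 was named outside this rule. Alternatives covered background, normalization, filter, probe rule, names, variance model, array weights, probe base composition, the authors' values, the sign of replicate 1 and leaving out each array. All arrays share 1 slide and 1 scan. Protein features of the members were not analysed here.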

Additional observations from a re-analysis of the deposited data

How the results depend on the processing

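No gene was called under any of 17 alternatives, and the lowest adjusted p of a member in limma was 0.259, for Syvn1 with the sign of replicate 1 turned. The alternative of current names reused the main fit and changed only which genes count as members. The authors' values hold nearly the same ratios as the processed signals. Neither of them is therefore a separate check. Both pools of a replicate lie on the same array, so each log2 ratio is already a paired difference. The test of these ratios against 0 is therefore the paired analysis. Signal over background limits these values: 10 of the 21 tested members were well above background in both channels on every array.

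The number of members below 0 on all arrays, 2 in the report, was 1 with median centring, 0 with both channels required on all arrays and 2 to 5 when an array was left out. The number above 0 on all arrays, 0 in the report, was 1 after adjustment for probe GC content, 4 with replicate 1 turned and 1 to 4 when an array was left out. With an array left out, 1 sign is asked of fewer arrays, so those counts are not like the others. The shares of all genes, 9.35% below and 2.94% above, are for the main fit and are not given for these settings. The counts are therefore not read as a result about the members. Median centring moved the median of all genes to -0.34, that of the members to -0.43 (2 above 0 and 19 below), of sensors, factors and targets to -0.40, of folding genes to -0.43 and of degradation genes to -0.66. With processed signals, and with the authors' values, the median of sensors, factors and targets was -0.50 and that of folding genes 0.29. With both channels required, Atf6 was the only gene left of the sensors, factors and targets, at -0.49. Without the filter, the median of folding genes was 0.0029. Leaving out an array moved the median of degradation genes between -0.11 and 0.20.

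Single genes turned sign in 37 instances, counting the processed signals and the authors' values separately, and the cause was not tested. Median centring gave -0.081 for Herpud1, -0.10 for Derl3, -0.20 for Edem3, -0.43 for Creld2, -0.48 for Hyou1, -0.013 for Trib3 and -0.019 for Erp29. With replicate 1 turned, Derl1 was 0.16, Herpud1 -0.28, Pdia3 0.15, Edem3 -0.12 and Derl2 0.090. Adjusted for GC content, Trib3 was -0.060, Derl3 -0.051 and Pdia6 0.010. Array weights gave -0.027 for Derl3. Processed signals and the authors' values each gave -0.070 for Derl3 and 0.041 for Syvn1. The mean over probes was 0.15 for Edem1 and 0.13 for Canx. Scale normalization between arrays gave 0.024 for Wfs1 and 0.21 for Edem1. When 1 array at a time was left out, the mean ran from -0.022 to 0.15 for Trib3, -0.26 to 0.16 for Wfs1, -0.32 to 0.16 for Pdia6, -0.13 to 0.0089 for Canx, -0.052 to 0.69 for Hyou1, -0.38 to 0.080 for Sdf2l1, -0.42 to 0.27 for Edem1, -0.83 to 0.17 for Syvn1, -0.23 to 0.034 for Derl1, -0.085 to 0.20 for Derl3 and -0.048 to 0.38 for Herpud1.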
